A study of Mus musculus and Rattus norvegicus with 37 samples.

Results

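Transforming growth factor beta (TGF-beta) signalling was followed in liver through 9 genes, each found by its gene name in the 4 tables of normalized counts. They were the ligand genes Tgfb1, Tgfb2 and Tgfb3, the receptor genes Tgfbr1, Tgfbr2 and Tgfbr3, the intracellular mediators Smad3 and Smad7, and Ctgf. The 9 genes stood among 47929 genes of the mouse tables and 28026 of the rat tables. The mouse tables listed 8 of them under these names and gave Ctgf as Ccn2, its current symbol, so that Ctgf below stands for Ccn2 in mice. The rat tables listed all 9.

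The study sequenced RNA from 37 livers, 21 of mice and 16 of rats, to learn what blocking the microRNA miR-29 does to liver gene expression and whether the deacetylase Sirt1 is needed for it. The WT/Floxed mice had an intact Sirt1 gene. They comprised 7 wild-type C57BL/6J females of 9 to 11 weeks and 6 floxed littermate females of 15 to 20 weeks, of which 8 received LNA29 (4 wild-type, 4 floxed) and 5 received saline (3 wild-type, 2 floxed). The L-Sirt1 KO mice were females of 15 to 20 weeks with Sirt1 deleted in liver (by a Cre driver not given in the sources used here), 4 given LNA29 and 4 saline. LNA29 is a pair of locked nucleic acid inhibitors, one against miR-29a-3p and one against miR-29b-3p and miR-29c-3p, injected once under the skin at 20 mg/kg each, and fed livers were taken on day 7. The controls received saline and not a scrambled oligonucleotide. The rats were males: 4 lean Zucker rats (ZLR) and 4 fatty Zucker rats (ZFR, fa/fa, which lack a working leptin receptor) of 5.5 months, and 8 further ZFR of 3 months, of which 4 received BT2, an inhibitor of branched-chain ketoacid dehydrogenase kinase, at 20 mg/kg a day by intraperitoneal injection, and 4 received its DMSO vehicle.

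TGF-beta is made by many liver cell types as a latent precursor that is stored in the matrix and has to be released before it can act. The freed ligand binds the type II receptor Tgfbr2, which phosphorylates the type I receptor Tgfbr1, while the co-receptor Tgfbr3 (betaglycan) presents ligand, Tgfb2 in particular. The receptors phosphorylate Smad2 and Smad3, which enter the nucleus with Smad4, and Smad7, itself a target gene, inhibits the receptors. In liver the pathway is best known for activating stellate cells, the source of scar matrix, and for restraining hepatocyte growth. Ctgf, a secreted matricellular protein, is widely used as a readout of TGF-beta and also responds to YAP signalling and mechanical load. miR-29 is known for repressing collagens and other matrix genes.

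The 3 mature miR-29 forms that LNA29 addresses are shown because a gene can be a direct target only where its RNA pairs with them. The sequences are those of RefSeq, with the seed (bases 2 to 8) in capitals.
mmu-miR-29a-3p: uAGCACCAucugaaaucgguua
mmu-miR-29b-3p: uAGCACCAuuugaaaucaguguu
mmu-miR-29c-3p: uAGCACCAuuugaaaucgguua
They share the seed AGCACCA. In GRCm38.p6, miR-29a-3p lies at chr6:31062673-31062694 (minus strand), miR-29b-3p at chr6:31063025-31063047 (minus) and again at chr1:195037091-195037113 (plus), and miR-29c-3p at chr1:195037600-195037621 (plus).

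A stretch complementary to the seed, TGGTGCT, was searched for on the transcribed strand of the longest annotated 3′ UTR of each gene. It was present in 2 of the 9 genes, Tgfb2 and Ctgf, against 2751 of 21005 genes with a 3′ UTR (13.1%). The other 7 genes did not hold these letters in that window. The match is shown in capitals with 10 bases on either side.
Tgfb2, position 1638 of 2656, chr1:186623794-186623820, minus strand: ttggttttttTGGTGCTcatggggtgt
Tgfb2, position 2626 of 2656, chr1:186622806-186622832, minus strand: tccggttttgTGGTGCTctagtggtaa
Ctgf, position 53 of 1608, chr10:24597118-24597144, plus strand: aaattccccgTGGTGCTagttaattca
Coordinates are GRCm38. Only the Ctgf match was followed by an A, the form that 598 of the 21005 genes held (2.85%). A match of letters is a description and not evidence of binding. The rat UTRs were not used here.

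All values below are normalized counts: Salmon read estimates per gene divided by a scaling factor that the authors computed for each library within its table. Each table was scaled alone, so levels are compared within a table. The mouse libraries held 42.6 to 78.0 M estimated reads, and 1 read stood for 0.746 to 1.37 normalized counts. The rat libraries held 0.188 to 58.5 M, and 1 read stood for 0.0322 to 10.5. In 3 rat libraries the depth was below 0.25 M, namely ZLR replicates 3 and 4 and ZFR vehicle replicate 4, and the rat differences are given with and without them (the shallow libraries in what follows). Sirt1 was listed at 493 to 699 normalized counts (median 596) in the 13 WT/Floxed libraries and at 535 to 617 (median 568) in the 8 libraries labelled L-Sirt1 KO. These ranges overlap, but they come from separately scaled tables and cover the whole gene, so they are no check of the deletion, and the animals are named by their label. The study assayed hepatic Sirt1 by RT-qPCR, which is not used here. Hepatocyte markers were abundant in every library, and their summed level ranged from 4578920 to 7668360 normalized counts in WT/Floxed mice. Since the samples are whole liver, fewer cells of a type and less RNA per cell cannot be told apart.

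Levels can be compared between genes only per length, which was possible in mice from the exonic length of each gene. This length joined the exons of all annotated transcripts of a gene, and the order below depends on it. No other length was tried. In WT/Floxed saline livers Smad7 stood highest, at 228 ± 133 normalized counts per kb of exon (SD, n = 5). Then came Tgfbr1 at 193 ± 34.6, Ctgf at 172 ± 98.8, Tgfbr2 at 131 ± 38.9, Smad3 at 126 ± 37.9, Tgfb1 at 103 ± 10.8 and Tgfbr3 at 88.4 ± 13.5. The ranges of neighbours in this order overlapped down to Tgfbr3, so no step between neighbours among these 7 genes was beyond their spread. Smad7 and Tgfbr1 each lay wholly above Tgfb1 and Tgfbr3. For Smad7 and Tgfb1 the margin was narrow, since the lowest Smad7 value was 111.1 and the highest Tgfb1 value 110.9. Tgfb3 (21.2 ± 4.64) and Tgfb2 (7.57 ± 3.26) lay apart from them and from each other. In saline mice labelled L-Sirt1 KO the same 7 genes lay between 83.9 and 214 per kb on average, with Tgfb3 at 26.9 ± 8.35 and Tgfb2 at 7.43 ± 1.40 (n = 4). Per kb of this joined length, Tgfb1 was thus the most abundant ligand transcript and Tgfb2 the least in both tables.

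**Figure D1:**
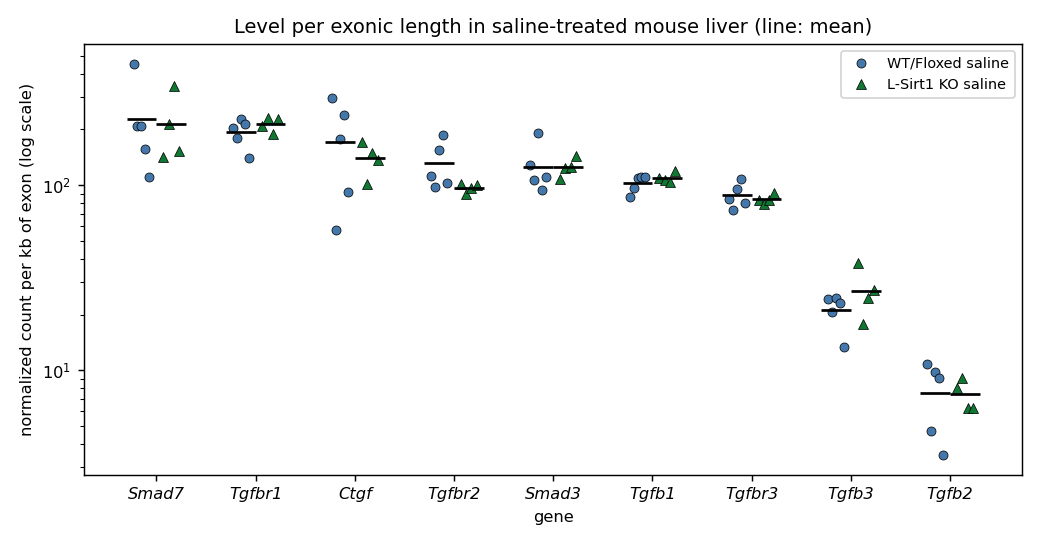
Normalized counts per kb of exon on a log axis for the 9 genes in saline-treated mouse liver, with one point per library (circles, 5 WT/Floxed; triangles, 4 labelled L-Sirt1 KO) and a line at each mean. The 7 genes from Smad7 to Tgfbr3 decline in small steps, and Tgfb3 and Tgfb2 lie below all of them.

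LNA29 was compared with saline in WT/Floxed mice to see whether blocking miR-29 moves the TGF-beta genes. None of the 9 genes passed the test, and the ranges of the groups overlapped for all 9. A gene was called in mice when limma gave p under 0.05 and a Benjamini-Hochberg adjusted p under 0.2, with the groups more than 1.2-fold apart and the gene averaging over 50 normalized counts. Of all 15811 genes tested, 4.35% were called and 1.51% had groups that did not overlap, so 0 of 9 is near the background. No member had an unadjusted p under 0.05, and the adjusted p ranged from 0.719 to 0.983. The log2 fold change was positive for 7 and negative for 2 members, with a median of 0.11 against 0.002 over all genes.

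**Figure D2:**
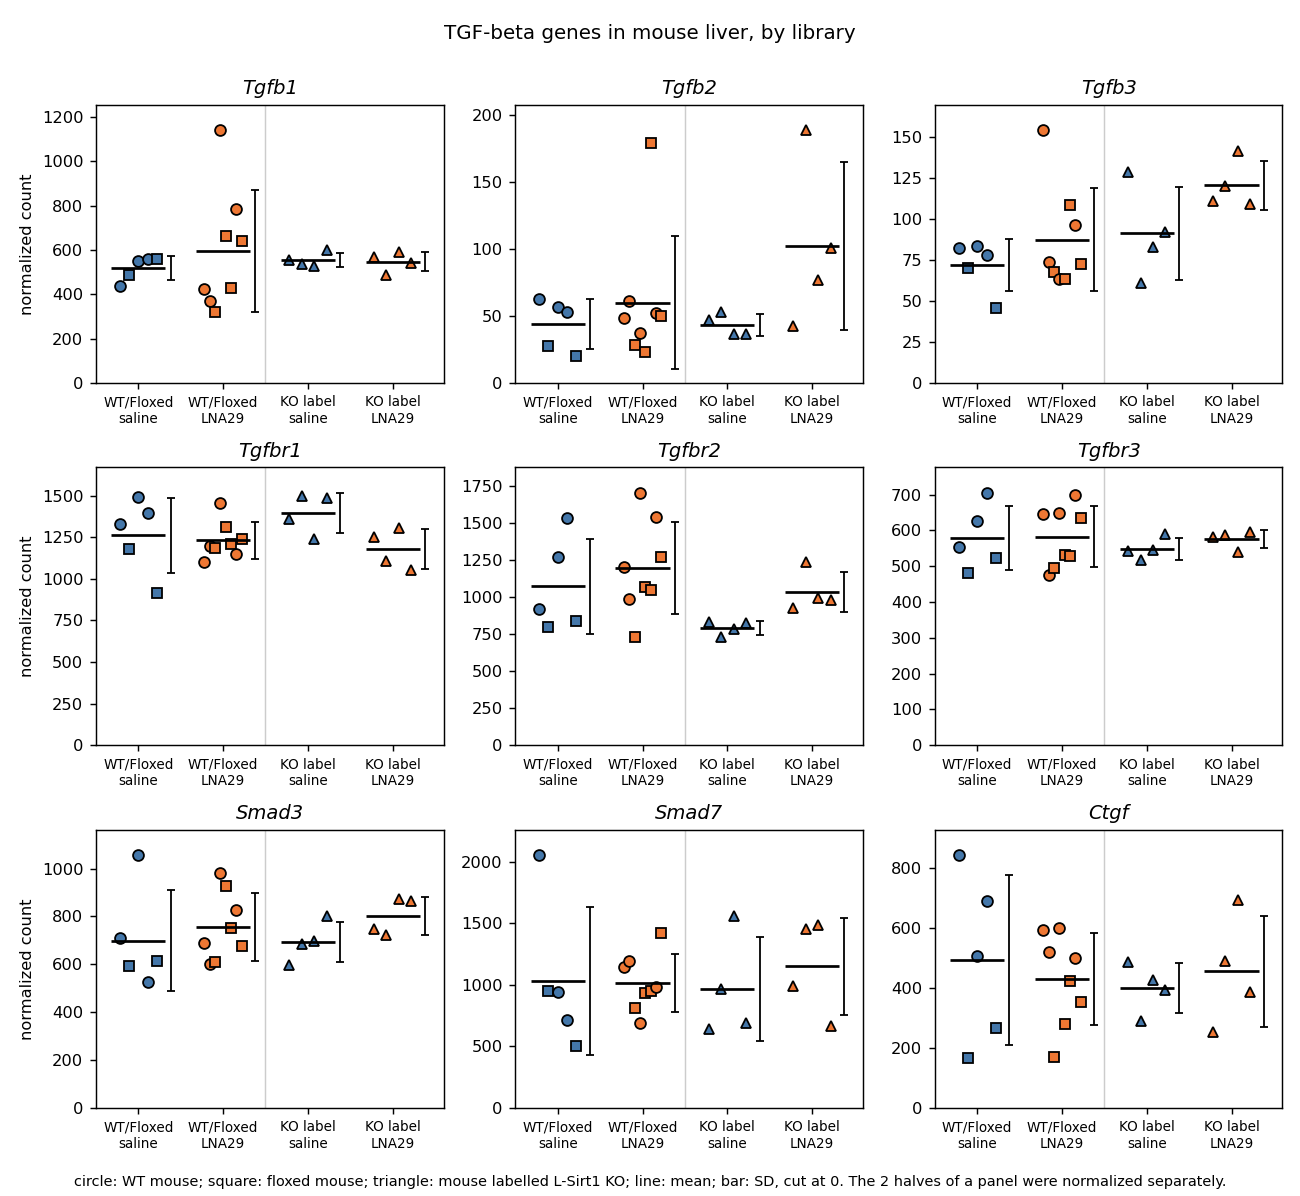
Normalized counts of the 9 genes in each mouse library (vertical axes start at 0), by group, with the mean as a line and the SD as a bar. Circles are wild-type, squares floxed and triangles L-Sirt1 KO-labelled mice. LNA29 and saline overlap in every WT/Floxed panel, 1 LNA29 library stands far above the others for Tgfb2, and the circles lie above the squares for Ctgf.

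Among the ligands, Tgfb1, the main ligand of liver fibrosis, was at 436, 485, 548, 559 and 557 normalized counts in the 5 saline livers. In the 8 LNA29 livers it ran from 319.9 to 1141 with a median of 532. The LNA29 livers enclosed the saline range, 4 lying above all saline livers and 4 below, and the SD was 274 against 54.6. The log2 fold change was 0.09 (SE 0.26, adjusted p = 0.925, limma). After LNA29 the level of Tgfb1 moved with markers of other cell types, none of which was at 0 throughout a group. The 4 LNA29 libraries with the lowest Tgfb1 (319.9 to 426) had the 4 lowest summed levels of the 8 macrophage markers (7343 to 11219.8), and the library with the highest Tgfb1 had the highest sum (40601). The same 4 libraries had the 4 lowest sums of the 8 sinusoidal endothelial markers (11348 to 12485, against 15994 to 18276 in the other 4). This did not hold in the saline livers, where macrophage sums were 13479 to 23653 and the lowest sum went with a Tgfb1 of 557. Saline endothelial sums were 13926 to 18174. After LNA29, 7 macrophage markers were lower and 1 higher with none called, and 6 endothelial markers were lower and 2 higher with 1, Lyve1, called lower. The 4 LNA29 libraries with the lowest Tgfb1 included all 3 from 1 flow cell, and its 2 saline livers had the lowest saline values (436 and 485). On the log2 scale LNA29 minus saline for Tgfb1 was -0.32 on that flow cell and 0.32 and 0.34 on the others. The part of the markers and of the flow cell in the Tgfb1 values was not tested.

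Tgfb2, the ligand whose 3′ UTR holds both matches shown above, was at 62.5, 27.3, 56.8, 52.5 and 20.2 in the saline livers. After LNA29 it ran from 23.2 to 179 with a median of 48.9. The value of 179 belonged to 1 floxed mouse and the other 7 livers reached at most 61.2, inside the saline range. LNA29 minus saline was 0.29 on the log2 scale (SE 0.42), and the 95% interval of the fold change ran from 0.657 to 2.27. Its sign was not stable, at -0.22 in the wild-type mice alone and 1.04 in the floxed mice, of which only 2 received saline. The values of Tgfb2 also moved in coarse steps, since 8 of 13 libraries fell within 0.02 steps of a whole multiple of 8.748 estimated reads, a feature noticed after its values were seen. Tgfb3 was at 82.2, 69.7, 83.2, 78.0 and 45.3 in saline livers and ran from 62.9 to 154 (median 72.8) after LNA29, again with overlap (log2 fold change 0.24, SE 0.23).

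Of the receptors, Tgfbr1, the type I receptor kinase, was at 1330.3, 1178, 1491, 1394 and 912 in saline livers and ran from 1102 to 1454 (median 1203) after LNA29. The LNA29 livers lay wholly inside the saline range, and the 95% interval of the fold change was 0.841 to 1.16. Tgfbr2 was at 923, 797, 1274, 1535 and 840.2 in saline livers and ran from 734 to 1707 (median 1137) after LNA29, with a log2 fold change of 0.16 (SE 0.20). Tgfbr3 was at 555, 482, 628, 705 and 524 in saline livers and ran from 475 to 700.02 (median 584) after LNA29, with a 95% interval of 0.843 to 1.202-fold. The intervals of Tgfbr1 and Tgfbr3 thus reached about as far as the 1.2-fold difference that a call required.

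Of the intracellular members, Smad3, the receptor-activated mediator, was at 709.6, 592, 1055, 524 and 615 in saline livers and ran from 599 to 980.4 (median 719.5) after LNA29. The inhibitor Smad7 was at 2053, 949, 943, 713 and 502 in saline livers and ran from 686 to 1424 (median 966). For both genes the LNA29 livers lay inside the saline range, with log2 fold changes of 0.14 (SE 0.17) and 0.11 (SE 0.26). Ctgf, the other gene with a seed match, was at 841, 165, 506, 687 and 264 in saline livers and ran from 169 to 598 (median 461) after LNA29. It also stayed inside the saline range, with a log2 fold change of -0.07 (SE 0.38) and a 95% interval of 0.541 to 1.69-fold.

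The wide spread of Ctgf followed the background of the mice. The 7 wild-type livers lay between 499 and 841 (median 592) and the 6 floxed livers between 165 and 423 (median 273), with no overlap, which was true of 2.06% of all genes tested. The other 8 members overlapped between wild-type and floxed mice. Background and age cannot be told apart here, since the wild-type mice were younger. Within the backgrounds LNA29 minus saline for Ctgf was -0.27 in wild-type and 0.47 in floxed mice on the log2 scale, and with background as a covariate it was 0.05.

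The same comparison in mice labelled L-Sirt1 KO asked whether the response depends on liver Sirt1. Again 0 of 9 members passed the test, where 1.87% of 15885 genes were called. The groups did not overlap for 1 member, Tgfbr2, and for 6.95% of all genes. Unadjusted p was under 0.05 for 3 members, Tgfb2, Tgfbr1 and Tgfbr2, and for 1779 of all genes (11.2%). The median log2 fold change of the members was 0.21 against -0.003 over all genes, and 7 of 9 were positive.

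Tgfbr2, the ligand-binding type II receptor, was at 929.6, 1237, 997 and 982 normalized counts in the 4 LNA29 livers and at 832, 731, 787 and 824 in the 4 saline livers. Every LNA29 liver lay above every saline liver. Here the log2 fold change was 0.38 (SE 0.11, 95% interval 1.097 to 1.54-fold), and the difference did not pass adjustment over all genes (adjusted p = 0.234, limma). The two-sided exact permutation test gave p = 0.0286, the smallest value that 4 against 4 libraries allow. Within the 3 flow cells, with 1 or 2 libraries of each group, the difference was 0.45, 0.37 and 0.29. These could only be positive, since the groups did not overlap. Over its 14 alternatives the adjusted p ran from 0.205 to 0.416. In the same livers the summed level of the 8 sinusoidal endothelial markers was 14559 to 15815 after LNA29 and 16095 to 17049 after saline. Of these markers 6 were lower and 2 higher, with Lyve1 (252 against 564 on average) and Stab1 (1633 against 2367) called lower. The sum of the 8 macrophage markers was 13057 to 16402 against 16244 to 19527. Of these 7 were lower and 1 higher, with Vsig4 and Clec4f called lower. No marker of either list was at 0 in both groups, and their part in the Tgfbr2 values was not tested.

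Tgfb2 was at 42.002, 188, 76.9 and 100.5 in the LNA29 livers and at 46.8, 52.7, 36.4 and 36.3 in the saline livers. In 3 of 4 LNA29 livers it lay above all saline livers and in the fourth it lay within their range. This gave a log2 fold change of 1.04 (SE 0.39, 95% interval 1.12 to 3.79-fold), with an adjusted p of 0.359 in limma and p = 0.0857 in the exact permutation test. It was 0.54, 0.92 and 1.44 within the 3 flow cells. Leaving out LNA29 replicate 1, the low liver, gave 1.40 with an adjusted p of 0.154, which passes the test. Leaving out LNA29 replicate 2, the liver at 188, gave 0.68 with an adjusted p of 0.543. Coarse steps were present here too, but of another size than in WT/Floxed mice (9.443 against 8.748 estimated reads). Here 5 of 8 libraries lay within 0.02 steps of a whole multiple.

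Tgfbr1 was at 1252, 1106, 1308 and 1054 after LNA29 and at 1359.8, 1499.99, 1239 and 1484 after saline. The groups overlapped, with 2 LNA29 livers below all saline livers (log2 fold change -0.24, SE 0.10, adjusted p = 0.430, limma). Tgfb3 was at 111, 119.8, 141 and 109 after LNA29 and at 128, 60.5, 82.9 and 92.1 after saline, and here 3 of the saline livers lay below all LNA29 livers (log2 fold change 0.44, SE 0.22, and 0.26 without saline replicate 2). The other members were not called and their groups overlapped. Tgfb1 was 547 ± 44.0 after LNA29 and 555 ± 31.97 after saline (SD, n = 4). Tgfbr3 was 576 ± 25.04 against 549 ± 30.2, and Smad3 802 ± 77.8 against 695 ± 83.6. Smad7 (1149 ± 391 against 963 ± 421) and Ctgf (455 ± 185 against 399.7 ± 82.3) varied most among animals.

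The difference between the responses of the genotypes was tested directly. It passed the test for 0 of 9 members at an adjusted p under 0.2, and for 0.0449% of 15601 genes, 7 in all. The lowest unadjusted p of a member was 0.175, for Tgfbr1, and the adjusted p ran from 0.718 to 0.958. For Tgfb2 the response was larger by 0.76 in mice labelled L-Sirt1 KO on the log2 scale (SE 0.64, 95% interval -0.59 to 2.10), and for Tgfbr2 by 0.22 (SE 0.28). Without LNA29 replicate 2 of the KO label the Tgfb2 value was 0.40. In floxed mice alone, which shared the age range of the KO-labelled mice, the Tgfb2 response was 1.04 (4 LNA29, 2 saline). Under the KO label it was also 1.04, and in wild-type mice alone it was -0.22. Over 26 alternatives the Tgfb2 difference between the responses ran from 0.00013 to 1.14. Differences of these sizes between genotypes were within the error, and their absence is not shown either.

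**Figure D3:**
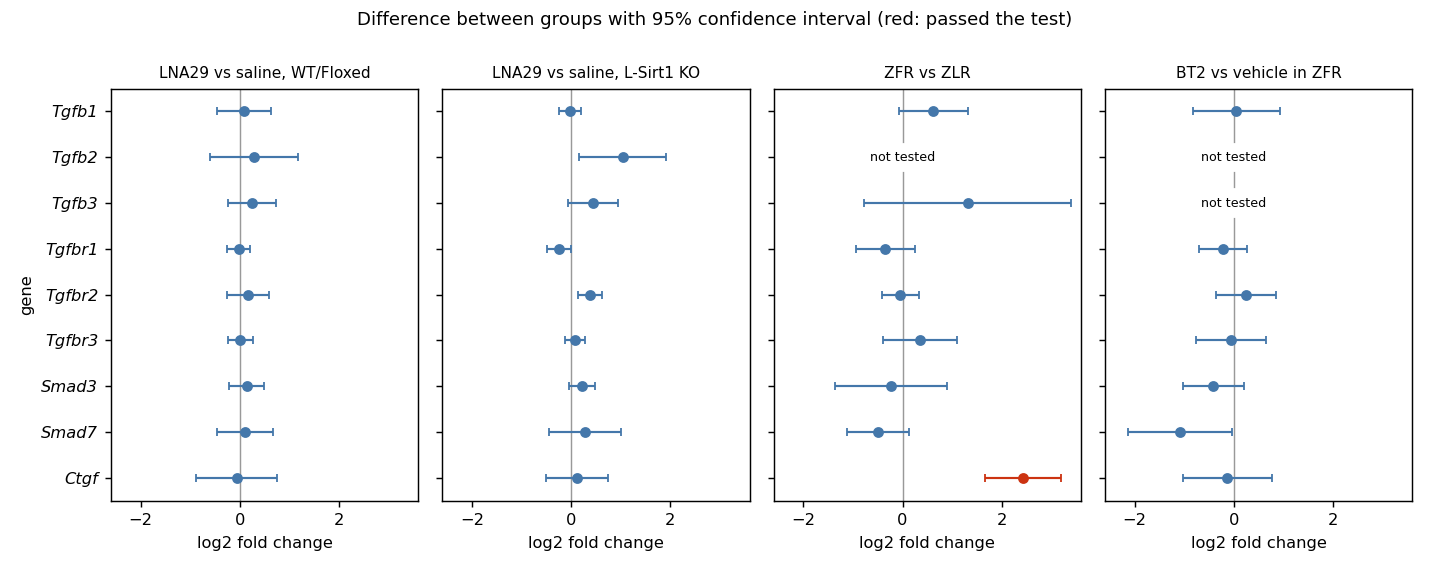
Log2 fold change of each gene in the 4 comparisons with its 95% confidence interval from limma (points and bars; the vertical line marks no difference). Ctgf in ZFR against ZLR, in red, is the 1 difference that passed the test, and genes below a mean of 10 normalized counts are marked as not tested.

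The fatty and lean rats were compared for the effect of the leptin receptor defect. Ctgf rose and was the 1 member called of 8 tested. A call in rats required an adjusted p under 0.05, which 4.25% of 8633 genes met. The groups did not overlap for 2 members, Ctgf and Tgfb1, and for 14.5% of all genes. Ctgf was at 6.70, 7.93, 10.6 and 10.5 normalized counts in ZLR and at 40.8, 89.8, 35.6 and 53.0 in ZFR. Every ZFR liver was above every ZLR liver, by 6.15 times on average. The log2 fold change was 2.42 (SE 0.34) on the log2(value + 1) scale, 5.36-fold with a 95% interval of 3.15 to 9.11 (adjusted p = 0.00392, limma), and the exact permutation p was 0.0286, the smallest possible.

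The depth behind these Ctgf values was uneven. ZLR replicates 3 and 4 each rested on 1 read, for which 95% Poisson intervals ran from 0.267 to 58.7 and from 0.264 to 58.2 normalized counts and so reached past 3 of the 4 ZFR values. Such intervals cover counting error only. Without these libraries the difference was 2.66 (adjusted p = 0.00311, limma). That setting left 2 ZLR livers, both from 1 flow cell, against 4 ZFR livers from both flow cells. It was 1.95 within the flow cell that held them and 2.89 within the other, which could only be positive since the groups did not overlap. Ctgf passed the test under all 16 alternatives, with log2 fold changes of 1.71 to 2.66. The 8 stellate cell markers summed to 288 to 395 in ZFR and 299.98 to 347 in ZLR, with 0 of 6 tested called and none at 0 throughout. The macrophage markers summed to 508 to 846 and 459 to 664. The 7 sinusoidal endothelial markers listed in rats summed to 430 to 610 and 462 to 595. Of these 3 were higher in ZFR and 4 lower, and 1, Stab2, was called higher (log2 fold change 1.16, SE 0.25, adjusted p = 0.033, limma). The part of these cells in the Ctgf values was not tested.

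**Figure D4:**
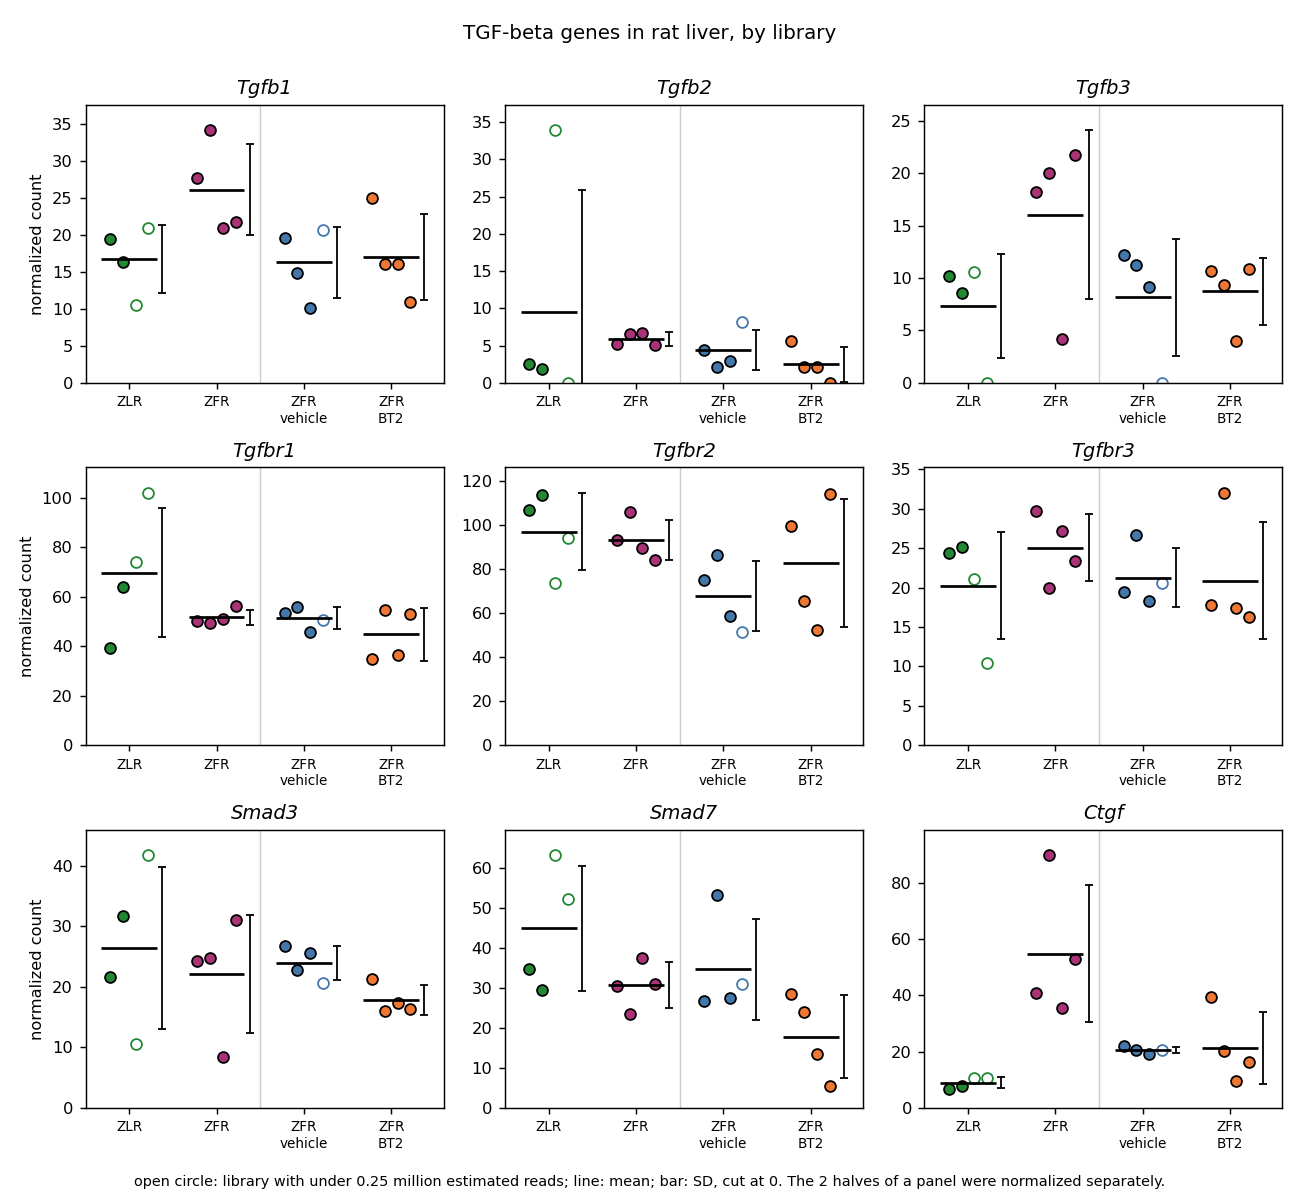
Normalized counts of the 9 genes in each rat library (vertical axes start at 0), by group, with the mean as a line and the SD as a bar, which is cut at 0. Open circles are the 3 libraries below 0.25 M estimated reads. All 4 ZFR livers lie above all ZLR livers for Ctgf, and Ctgf in the younger ZFR lies near 20 normalized counts in most libraries.

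The rat ligand genes were at low counts. Tgfb1 was at 27.6, 34.1, 20.9 and 21.8 in ZFR and at 19.4, 16.3, 10.5 and 20.9 in ZLR. The lowest ZFR value, 20.8911, was just above the highest ZLR value, 20.8847, which rested on 2 reads. The log2 fold change of 0.62 (SE 0.31) was not called (adjusted p = 0.363, limma). It was 0.49 and 0.76 within the flow cells, which could only be positive since the groups did not overlap, and 0.50 without the shallow libraries. Tgfb3 was at 18.2, 20.003, 4.18 and 21.8 in ZFR and at 10.2, 8.59, 10.5 and 0 in ZLR, with 3 of 4 ZFR livers above all ZLR livers and a large error (log2 fold change 1.32, SE 0.93, and 0.51 without the shallow libraries). Tgfb2 was below the minimum mean and not tested. Its ZFR values of 5.23, 6.56, 6.73 and 5.01 lay above 3 ZLR values (2.56, 1.79 and 0), while ZLR replicate 3 stood at 33.9 on about 3 reads.

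No difference was detected for the receptors or SMADs at this depth. Tgfbr1 was 51.8 ± 3.05 in ZFR and 69.8 ± 26.0 in ZLR (SD, n = 4), and the difference of -0.35 on the log2 scale became 0.05 without the shallow libraries. Tgfbr2 was 93.2 ± 9.26 against 97.1 ± 17.6, and Tgfbr3 25.1 ± 4.29 against 20.3 ± 6.78. Smad3 was 22.1 ± 9.69 against 26.4 ± 13.4. Smad7 was at 30.5, 23.5, 37.6 and 31.1 in ZFR and at 34.8, 29.5, 63.2 and 52.2 in ZLR, where the highest values belonged to the shallow libraries (log2 fold change -0.49, SE 0.28, and -0.079 without them). Without them the differences were also -0.25 for Tgfbr2, 0.0015 for Tgfbr3 and -0.37 for Smad3, against -0.04, 0.35 and -0.23 with them. The adjusted p of these 5 genes was 0.422 or more.

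BT2 was compared with its vehicle in ZFR because the study links this compound to miR-29. None of the 7 tested members was called, and neither was any of 8405 genes (0%, with 332 at an unadjusted p under 0.05). No member had groups that did not overlap, which held for 2.96% of genes. Smad7 was at 28.5, 24.0, 13.4 and 5.44 after BT2 and at 26.8, 53.3, 27.5 and 31.0 after vehicle. In 3 of 4 BT2 livers it lay below all vehicle livers, and the lowest value rested on 1 read (log2 fold change -1.08, SE 0.48, adjusted p = 0.898, limma). Smad3 was at 21.4, 16.0, 17.4 and 16.3 after BT2 and at 26.8, 22.8, 25.7 and 20.6 after vehicle, likewise with 3 livers below all vehicle livers (-0.41, SE 0.28). The exact permutation p was 0.0857 for Smad7 and 0.0571 for Smad3. Without the shallow vehicle library the differences were -1.12 and -0.48, and without BT2 replicate 4, the library of 1 read, that of Smad7 was -0.64.

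Ctgf was at 39.2, 20.1, 9.39 and 16.3 after BT2 and at 21.98, 20.6, 19.3 and 20.7 after vehicle. The BT2 livers lay on both sides of a narrow vehicle range (log2 fold change -0.13, SE 0.41, 95% interval 0.491 to 1.70-fold). Tgfb1 was 17.0 ± 5.83 after BT2 and 16.3 ± 4.83 after vehicle. Tgfbr1 was 44.8 ± 10.6 against 51.4 ± 4.45, Tgfbr2 82.9 ± 28.9 against 68.0 ± 15.8, and Tgfbr3 20.9 ± 7.46 against 21.3 ± 3.70. The groups overlapped for all 4, with adjusted p of 0.901 or more. Without the shallow vehicle library the log2 differences were -0.13 for Ctgf, 0.18 for Tgfb1, -0.23 for Tgfbr1, 0.12 for Tgfbr2 and -0.07 for Tgfbr3, against -0.13, 0.05, -0.22, 0.24 and -0.07 with it. Tgfb2 and Tgfb3, with means of 3.45 and 8.43, were not tested.

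The genes around the members were read from 4 lists. The latency and activation genes (11 genes, from the latent binding proteins to integrins) had 0 called of 11 tested in each mouse comparison. In WT/Floxed mice the largest difference was Itgb6, an integrin subunit that frees latent ligand (-1.16, SE 0.94), and in mice labelled L-Sirt1 KO it was the same gene with the other sign (0.98, SE 0.95). Both values rest on few libraries. Under the KO label Itgb6 was at 183 in LNA29 replicate 2 and between 4.60 and 10.2 in the other 7 libraries, and without that library it fell below the minimum and was not tested. In WT/Floxed mice it was at 118 and 103 in saline replicates 1 and 2, at 84.6 in LNA29 replicate 6 and at no more than 9.65 elsewhere, and the 3 high values all came to 99.3 estimated reads. In ZFR against ZLR 6 of 7 tested were higher and 1 lower. Of all genes 4.25% were called there and 14.5% had groups that did not overlap. Of the 7 genes 1 was called, Ltbp4, a latent TGF-beta binding protein, which was higher. It was at 119.7, 119.9, 104 and 136 in ZFR and at 34.4, 56.6, 21.5 and 63.8 in ZLR, without overlap (log2 fold change 1.54, SE 0.31, adjusted p = 0.0227, limma), and 1.42 without the shallow libraries (adjusted p = 0.00582). Its call was lost in 6 of 16 alternatives, among them leaving out any 1 ZFR library, with adjusted p up to 0.0757. The median of the 7 genes was 1.46 against 0.07 over all genes. It includes the shallow ZLR libraries, in which 1 read stood for 10.5 and 10.4 normalized counts, and it was not computed without them. With BT2 0 of 6 were called, and Lrrc32, which tethers latent ligand on cells, differed most (-0.31, SE 0.55, and -0.063 without the shallow library).

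Other receptors of the superfamily (9 genes) and other SMADs with their regulators (13 genes) had no call in any comparison. Of the second list, Smad9, a mediator of the bone morphogenetic protein branch, differed most in WT/Floxed mice, at 1095 ± 192 after LNA29 (n = 8) and 683 ± 294 after saline (n = 5), with 0.85 on the log2 scale (SE 0.31, adjusted p = 0.23, limma). Saline replicate 5 was at 181 and the other 4 saline livers between 664 and 887. Without that library the difference was 0.43 (adjusted p = 0.199, which passes the test), and Smad9 also passed with background as a covariate and in floxed mice alone. In mice labelled L-Sirt1 KO its difference was 0.45 (SE 0.41). Among the receptors the largest were Acvrl1 in WT/Floxed mice (-0.32, SE 0.39) and Acvr1b in mice labelled L-Sirt1 KO (0.23, SE 0.11). In rats they were Bmpr2 (0.69, SE 0.96) and Smad2 (0.99, SE 1.05) between ZFR and ZLR, and Bmpr1a (-0.61, SE 0.47) and Zfyve9 (-0.54, SE 0.42) with BT2, none of them called. Without the shallow libraries these 4 differences were -0.049, 0.20, -0.18 and -0.75. For the difference between the responses of the genotypes the largest values in these lists were 2.15 for Itgb6 (SE 1.4985), with the few high libraries given above, 0.55 for Acvrl1 (SE 0.56) and 0.51 for Smad6 (SE 0.30). The difference for Smad6, an inhibitory SMAD, passed the test in 1 alternative, with floxed controls only.

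Of 10 other response genes, 9 were tested in each mouse comparison and 0 were called. In WT/Floxed mice Acta2, smooth muscle actin, differed by 0.54 (SE 0.43), at 265 ± 146 normalized counts after LNA29 (n = 8) and 192 ± 141 after saline (n = 5).

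Between ZFR and ZLR 8 of these genes were tested. Among all genes 4.25% were called there and 14.5% had groups that did not overlap. Acta2 rose from 7.85, 6.17, 21.1 and 10.4 in ZLR to 57.2, 58.8, 39.7 and 56.0 in ZFR, without overlap (2.24, SE 0.37, adjusted p = 0.00768, limma), and passed under all 16 alternatives. It was 2.74 without the shallow libraries. Fn1, fibronectin, and Tgfbi, a secreted matrix protein, each fell by 0.38 (SE 0.09), with adjusted p of 0.0476 and 0.0488. Both calls were fragile, lost in 12 and 13 of 16 alternatives and without the shallow libraries (adjusted p = 0.137 and 0.0956). With BT2 0 of 6 tested were called, and the largest difference was Junb (1.06, SE 0.62, and 1.05 without the shallow library).

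For each member the gene that ran most like it over the 13 WT/Floxed libraries was sought among 12874 genes. The values compared were log2 levels as deviations from the mean of their group, LNA29 or saline. It is a description without a test, since these libraries share groups and flow cells. For Smad7 this was Id1, one of the response genes above, with r = 0.95, and in the 8 separately normalized libraries labelled L-Sirt1 KO the same pair had r = 0.94. For Tgfbr2 it was Ocrl (r = 0.96, and 0.76 in the KO-labelled libraries). The closest genes to the other members were Slc40a1 for Tgfbr1 (0.95, then 0.44), Adap2os for Smad3 (0.93, then 0.42) and Robo4 for Tgfb1 (0.95, then 0.06). For Ctgf, Tgfbr3, Tgfb2 and Tgfb3 the closest genes, Tspan12, Hlcs, Zfp346 and Kansl3, had r of 0.90 to 0.94 in the first table and -0.64 to 0.02 in the second. The r of Smad7 and Id1 was thus much the same in both tables, and that of the other pairs was lower in the second. Each first r was the highest among 12874 genes and so was raised by the choice. The second r did not enter the choice and rests on 8 libraries. A lower second r was therefore likely beforehand, and no difference between the tables is read from it.

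Some of these genes share exonic bases with others in the GRCm38 annotation. Ctgf shares 665 with Gm15270 on the opposite strand, Tgfb2 shares 124 with Gm29491, and Tgfb3 shares 257 with Gm48008 and 163 with Gm37804. Tgfbr3 shares 297 with Gm43422 on the same strand. Whether strand was used in counting is not given in the sources used here, so reads of these genes may be split or joined with those of their neighbours.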

How the data were processed

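Liver poly(A)+ RNA libraries of 21 mice and 16 rats were analysed. Per the study's methods and processing notes, the authors aligned reads with STAR to mm10 or rn6, quantified them with Salmon and scaled them with DESeq2. The deposited values are signal values: estimated counts divided by library factors, in 4 tables scaled separately. The authors excluded 1 floxed saline library. The share of values that were whole reads was 68.3 to 90.0%, so reads were not recovered and no count model was used. Here genes with a mean of at least 10 were fitted as log2(value + 1) with limma 3.58.1 (R 4.3.3, trend), adjusted over all genes tested. Rows with a blank name (0.0134 to 0.0461% of the counts) or a repeated name were left out. Repeated names took 130 rows in each mouse table (0.0897 and 0.0909% of the counts). In each rat table they took 4523 rows (2.12 and 2.17%). Groups came from the sample labels. In simulated data a 2-fold change was recovered for 100% of genes in both mouse designs and 64 and 69% in the rat designs. The changed genes averaged at least 50 normalized counts, and all genes had the same spread, taken from abundant genes. Most rat members averaged less than 50, so these shares do not describe them, nor mouse members with a wider spread. Replicates are separate animals by the study's methods. All 9 members, and for each list the genes called or the one with the largest difference, were named, except 1 response gene that is not reported here. Alternatives were another pseudocount, no minimum, TMM scaling, flow cell, background or replicate as a term, precision weights, other thresholds and single libraries left out. The members and lists were chosen with earlier results of these data known.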

Additional observations from a re-analysis of the deposited data

Results flagged for a closer look

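In 6 of 72 sets of one gene in one group of 4 to 10 libraries, 1 library stood apart by Dixon's test at the 95% level, which chance gives in about 5% of sets. Tgfb2 was at 179 normalized counts in WT/Floxed LNA29 replicate 6, where the others lay between 23.2 and 61.2. Of these sets 4 were Tgfb3 in rats, and all of them rest on few reads: 4.18 in ZFR replicate 3 (2 reads; others 18.2 to 21.8), 0 in ZLR replicate 4 (others 8.59 to 10.5), 4.02 in ZFR BT2 replicate 3 (3 reads; others 9.34 to 10.9) and 0 in ZFR vehicle replicate 4 (others 9.17 to 12.2). Tgfbr3 was at 32.04 in ZFR BT2 replicate 2, where the others lay between 16.3 and 17.8.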

How the results depend on the processing

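The number of members called was unchanged in each comparison under the other pseudocount, filter, scaling, covariate and threshold settings. Leaving out single libraries gave counts of 0 to 1 in mice labelled L-Sirt1 KO, the 1 being Tgfb2 without LNA29 replicate 1. Demanding an A after the seed match left 1 gene. The labels do not state that replicate numbers pair the libraries. In both rat comparisons, however, same-numbered libraries came from the same flow cell. Same-numbered libraries correlated at -0.35 to 0.25 in WT/Floxed mice, -0.16 to 0.28 in mice labelled L-Sirt1 KO, 0.03 to 0.14 between ZFR and ZLR and -0.04 to 0.28 with BT2, and 1 of 5, 1 of 4, 2 of 4 and 3 of 4 pairs correlated best with their own number. With the replicate block 0, 0, 1 and 0 members were called in the 4 comparisons, and 56, 145, 221 and 0 genes in all instead of 688, 297, 367 and 0. For differences between responses, 0 genes instead of 7 were called with the block.

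No rat library met the planned depth rule (a small share of its table's median), which was not run, and the setting without libraries under 0.25 M reads was chosen after seeing the data. The signs that turned belonged to differences that were not called, and the cause was not tested. In WT/Floxed mice they were, for the replicate block, Tgfb2 -0.10, Tgfbr1 0.0016 and Tgfbr3 -0.049; in wild-type mice only, Tgfb2 -0.22, Tgfbr3 -0.035, Smad7 -0.19 and Acta2 -0.10; in floxed mice only, Tgfb1 -0.084, Tgfbr1 0.25 and Ctgf 0.47; and with background as a covariate, Ctgf 0.055. In ZFR against ZLR, Tgfbr1 was 0.046 and Bmpr2 -0.049 without the shallow libraries, and Bmpr2 was -0.12 with precision weights, with which Tgfbr2 was -0.014 for BT2. The difference between responses turned for Tgfb1 (0.013 with flow cell as a covariate) and, with floxed controls only, for Tgfb1 (0.062), Tgfbr3 (-0.047), Smad3 (-0.068), Smad7 (-0.27) and Ctgf (-0.35).

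Leaving out single libraries also turned signs of differences that were not called. In WT/Floxed mice the ranges were -0.062 to 0.20 for Tgfb1, -0.13 to 0.046 for Tgfbr1, -0.053 to 0.084 for Tgfbr3, -0.11 to 0.40 for Smad7 and -0.40 to 0.19 for Ctgf. In mice labelled L-Sirt1 KO they were -0.060 to 0.031 for Tgfb1 and -0.11 to 0.37 for Ctgf. Between ZFR and ZLR they were -0.17 to 0.037 for Tgfbr2, -0.59 to 0.16 for Smad3, -0.39 to 1.28 for Bmpr2 and -0.25 to 1.71 for Smad2. With BT2 they were -0.15 to 0.23 for Tgfb1, -0.28 to 0.043 for Tgfbr3, -0.47 to 0.18 for Ctgf and -0.62 to 0.028 for Lrrc32. For the difference between responses they were -0.22 to 0.040 for Tgfb1, -0.014 to 0.12 for Tgfbr3, -0.088 to 0.16 for Smad3, -0.12 to 0.43 for Smad7 and -0.068 to 0.52 for Ctgf. In the shallowest rat library 3 reads came to 31.6 normalized counts, which limits the low rat values.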
